A study of Mus musculus with 6 samples.

Results

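Vegfa and 9 genes that mark blood vessel endothelium (Kdr, Flt1, Tek, Tie1, Cdh5, Pecam1, Sox17, Sox18 and Ramp2) were compared between 2 groups of cochleae. They came from wild type embryos and embryos labelled null for Igf1, the gene of insulin-like growth factor 1. The genes were taken by name, at every probe set annotated to that gene alone, which gave 15 of the 22626 probe sets tested and 10 of the 12393 genes. Of the 10 genes, 6 had 1 probe set, Vegfa, Cdh5 and Sox17 had 2, and Flt1 had 3. The wild type group was Igf-1+/+ and the null group Igf-1-/-, embryos of heterozygous parents on a C57BL/6J background, collected at embryonic day 18.5. Each of 3 arrays per group held RNA pooled from 4 cochleae, with the otic capsule (the cartilage and bone around the cochlea) and without vestibular tissue. The disrupted part of Igf1 is not given in the labels, and in a further label field the null samples carry the wild type sign. Groups here follow the titles and descriptions.

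VEGF-A is a secreted factor that drives the growth and survival of blood vessels, and its transcription rises when oxygen is low through hypoxia-inducible factors. It signals mainly through the receptor encoded by Kdr, while the receptor encoded by Flt1, which is also made in a soluble form, binds it tightly and limits it. Tek and Tie1 form the angiopoietin receptor pair, Cdh5 and Pecam1 hold endothelial cells together, Sox17 and Sox18 are transcription factors of endothelial cells, and Ramp2 is the partner that makes the receptor Calcrl respond to adrenomedullin. In the cochlea, capillaries run through the spiral ligament and the stria vascularis, the tissue that keeps up the potential of the inner ear fluid.

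Promoter sequence is shown for the ligand and its 2 receptors, the members around which the results are ordered. RefSeq tables of build GRCm38.p6 held a promoter for 5 of the 10 genes (Vegfa, Kdr, Flt1, Tek and Tie1), and the 250 bases before the start are given 5′ to 3′ on the gene's own strand. Capitals mark GC boxes (GGGCGG or its reverse complement CCGCCC) and, in Flt1, the ETS-type AGGAAG, the cyclic AMP response element TGACGTCA and the TATA box TATAAA.
Vegfa: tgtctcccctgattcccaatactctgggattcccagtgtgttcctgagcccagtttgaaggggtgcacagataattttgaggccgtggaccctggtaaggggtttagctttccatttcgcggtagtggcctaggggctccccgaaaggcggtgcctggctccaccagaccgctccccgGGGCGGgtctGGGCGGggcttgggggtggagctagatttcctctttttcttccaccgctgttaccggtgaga
Kdr: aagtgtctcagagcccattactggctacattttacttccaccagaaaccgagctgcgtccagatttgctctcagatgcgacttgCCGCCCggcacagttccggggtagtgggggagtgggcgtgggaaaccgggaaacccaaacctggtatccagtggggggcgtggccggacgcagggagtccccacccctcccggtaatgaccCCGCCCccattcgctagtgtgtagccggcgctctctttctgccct
Flt1: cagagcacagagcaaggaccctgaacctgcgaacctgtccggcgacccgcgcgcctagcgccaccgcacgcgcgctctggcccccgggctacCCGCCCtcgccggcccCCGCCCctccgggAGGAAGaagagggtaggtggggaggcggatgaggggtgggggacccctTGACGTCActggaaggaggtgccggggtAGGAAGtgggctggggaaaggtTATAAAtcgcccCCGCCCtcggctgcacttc

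These windows lie at chr17:46032378-46032627 for Vegfa, chr5:75978456-75978705 for Kdr and chr5:147726012-147726261 for Flt1, all on the minus strand. Vegfa held 2 GC boxes, Kdr 2 and Flt1 3, with the nearest beginning 62, 45 and 19 bases before the start. A GC box on either strand was present in 32.9% of 27025 promoters of the same length, AGGAAG in 29.2%, TATAAA in 13.0% and TGACGTCA in 1.62%. The hypoxia response core ACGTG, searched on both strands, occurred in 16.6% of promoters and in none of the windows of these 5 genes. Sequence outside these short windows was not searched, so sites further from the start would be missed. The arrays measured transcripts and not these sites, so the matches are a description of sequence.

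Levels below are log2 signals after quantile normalization, and differences are null minus wild type. Igf1 itself was lower in every null array at its 3 probe sets, with differences from -0.99 to -0.46. The null signal was 0.729, 0.684 and 0.502 of wild type, and at the brightest Igf1 probe set it still averaged 10.59. As deposited, array medians ran from 5.61 (null replicate 1) to 6.36. The number of arrays limits precision, and the probability values measure only the spread between these pools. In limma, 0 of 22626 probe sets passed an adjusted p of 0.05 (0%), and at an unadjusted p under 0.05 there were 583 with lower (2.58%) and 547 with higher signal (2.42%). None of the 15 probe sets described here passed the adjusted threshold (adjusted p from 0.971 to 0.998), and 2 of 15, of Vegfa and Flt1, had lower signal at an unadjusted p under 0.05. With the replicate number as a block that count was 1 of 15 (Flt1), and it was 0 without any 1 of the wild type arrays. The 9 endothelial genes gave clear signal, with mean levels of 6.00 to 8.93 at their brightest probe sets. By comparison, 19 genes of tissues outside the dissection (sperm, milk, pancreas, retina, kidney and adrenal genes) had a median level of 0.93, and the brightest of them, the trypsinogen gene Prss2, reached 4.47.

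Vegfa had the largest difference among the 10 genes. At its brightest probe set, 1420909_at, the wild type arrays read 7.39, 6.97 and 7.35 and the null arrays 6.65, 6.68 and 5.43 in replicates 1 to 3. Every null array was below every wild type array, and null replicate 3 stood lowest by more than a log2 unit. Wild type averaged 7.23 ± 0.23 (SD, n = 3), null 6.26 ± 0.71 (SD, n = 3), a difference of -0.98 ± 0.39 (SE), or 0.508 of the wild type signal with a 95% interval of 0.258 to 1.00. The unadjusted p in limma was 0.0499 and the adjusted p 0.980. A two-sided exact permutation test gave p = 0.1, below which 3 against 3 arrays cannot go. Without null replicate 3 the Vegfa difference was -0.56 (adjusted p = 0.909 in limma), and over all alternatives it ran from -1.19 to -0.56 with adjusted p from 0.687 to 1.00.

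The second Vegfa probe set, 1451959_a_at, gave the same direction with overlapping groups. Wild type arrays read 5.27, 5.07 and 5.01 and null arrays 3.67, 5.01 and 4.27. Here null replicate 1 was lowest, while null replicate 2 read as high as wild type replicate 3. The difference was -0.80 ± 0.36 (SE), 0.575 of the wild type signal with a 95% interval of 0.309 to 1.07 (adjusted p = 0.980 in limma, exact permutation p = 0.2). Its null mean of 4.32 lay below the signal of Prss2. Without null replicate 1 it differed by -0.47, where the brighter probe set stood at -1.17. Without the pair of arrays that carry 14 in their titles the dimmer stood at -0.40 and the brighter at -1.10. The array that read lowest was thus not the same at the 2 probe sets. The brighter minus the dimmer Vegfa probe set was 2.12, 1.89 and 2.34 in the wild type arrays and 2.99, 1.68 and 1.16 in the null arrays. Its SD over 3 arrays was thus 0.22 for wild type but 0.94 for null, and its mean differed by -0.18 (exact permutation p = 0.8).

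**Figure D1:**
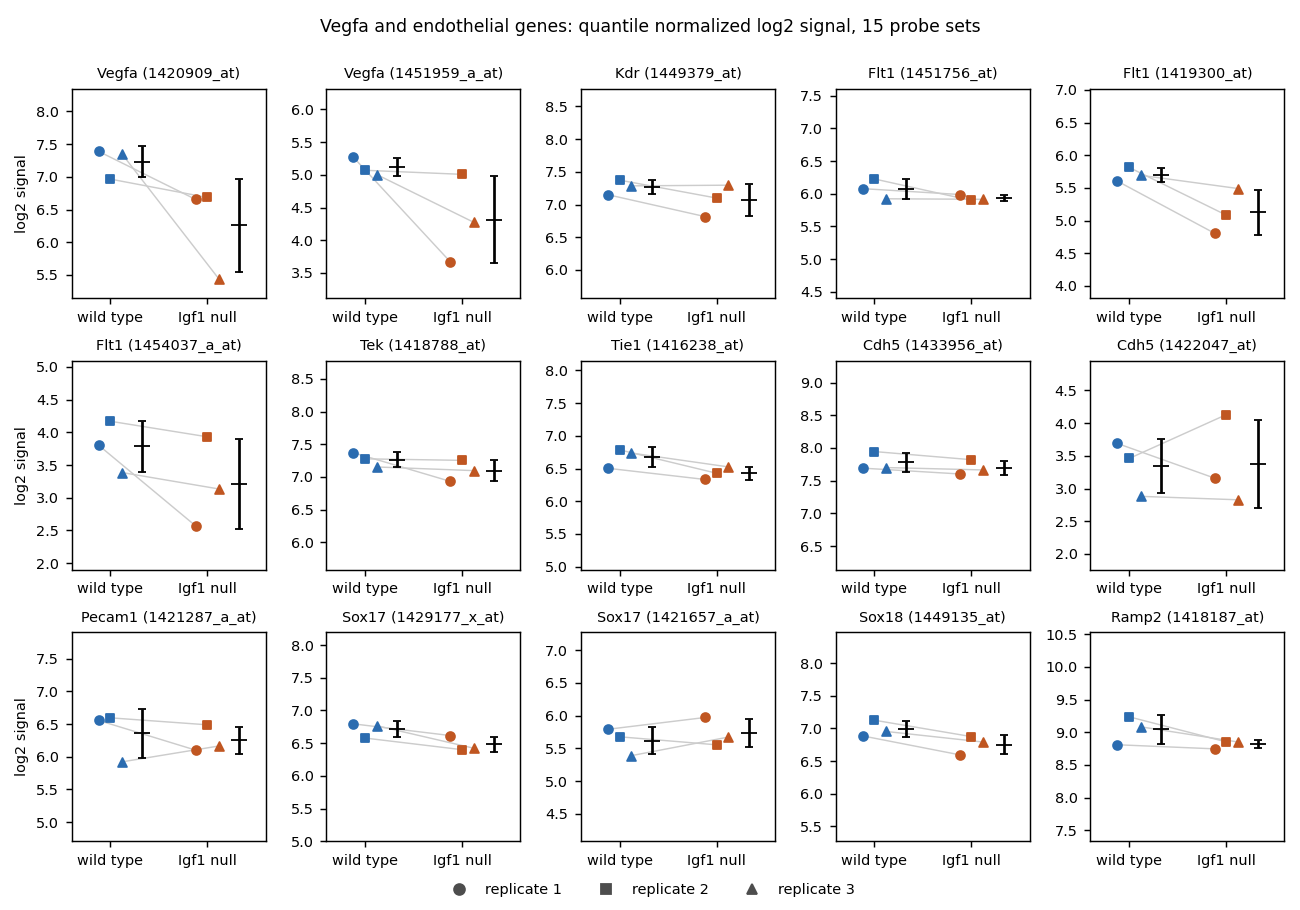
Quantile normalized log2 signal of the 15 probe sets, 1 panel each, in wild type (blue) and Igf1 null (orange) arrays; symbols give the replicate number, grey lines join arrays of the same number, and black bars show mean ± SD (n = 3). Every panel spans the same range of log2 units; Vegfa (1420909_at) reads 7.39, 6.97 and 7.35 in wild type and 6.65, 6.68 and 5.43 in null arrays, and in most endothelial panels the groups overlap.

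The VEGF receptors had smaller differences. Kdr (1449379_at) read 7.15, 7.37 and 7.29 in wild type and 6.82, 7.10 and 7.30 in null arrays. Null replicate 3 lay within the wild type range, so the groups overlapped. The Kdr difference was -0.20 ± 0.16 (SE), 0.871 of wild type with a 95% interval of 0.655 to 1.16 (adjusted p = 0.981 in limma). It was -0.072 without null replicate 1 and -0.31 without null replicate 3.

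The 3 Flt1 probe sets differed in size but not in sign. At 1419300_at wild type arrays read 5.60, 5.81 and 5.69 and null arrays 4.81, 5.08 and 5.49, each null array below each wild type array. That Flt1 difference was -0.58 ± 0.20 (SE), 0.671 of wild type (95% interval 0.471 to 0.957; unadjusted p = 0.0338 and adjusted p = 0.971 in limma; exact permutation p = 0.1). At the brightest Flt1 probe set, 1451756_at, values were 6.08, 6.23 and 5.92 against 5.99, 5.90 and 5.91, with null replicate 1 inside the wild type range. The difference there was -0.14 ± 0.12 (SE), 0.906 of wild type with an interval of 0.731 to 1.12, and -0.068 without wild type replicate 2. At the dimmest, 1454037_a_at, the Flt1 means were 3.79 ± 0.39 (SD, n = 3) and 3.21 ± 0.69 (SD, n = 3), a difference of -0.57 ± 0.41 (SE) at signals that Prss2 also reached. The gap between 1451756_at and 1419300_at was 0.37 in wild type and 0.81 in null arrays, a change of 0.43 that did not separate the groups (exact permutation p = 0.2). Flt1 relative to Kdr within an array, at their brightest probe sets, differed by 0.06 between the groups, which overlapped.

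Of the angiopoietin receptor pair, Tek (1418788_at) read 7.37, 7.28 and 7.15 in wild type and 6.93, 7.25 and 7.10 in null arrays. Tek overlapped through null replicate 2 and differed by -0.17 ± 0.13 (SE; ratio 0.887, interval 0.701 to 1.12), and by -0.039 without the arrays that carry 14 in their titles. Tie1 (1416238_at) read 6.50, 6.79 and 6.74 against 6.33, 6.43 and 6.52, so that null replicate 3 was just above wild type replicate 1. Its difference was -0.25 ± 0.13 (SE; ratio 0.843, interval 0.672 to 1.06), with an adjusted p of 0.980 in limma. Tek relative to Tie1 within an array differed by 0.07.

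Of the junction genes, Cdh5, the cadherin of endothelial adherens junctions, read 7.69, 7.94 and 7.70 in wild type and 7.60, 7.82 and 7.66 in null arrays at 1433956_at. The groups overlapped and the difference was -0.08 ± 0.13 (SE; ratio 0.944, interval 0.751 to 1.19), and -0.00078 without wild type replicate 2. Its other probe set, 1422047_at, lay at 3.36 on average, within the range of the outside tissues, and stood at 0.03 ± 0.41 (SE), with its sign turned on the deposited values (-0.30) and with median centring (-0.12). Pecam1, also present on platelets and leukocytes, read 6.55, 6.59 and 5.92 in wild type and 6.10, 6.49 and 6.16 in null arrays. Wild type replicate 3 was the lowest of the 6 Pecam1 readings. The difference was -0.11 ± 0.24 (SE; ratio 0.929, interval 0.616 to 1.40), and 0.01 without wild type replicate 2 but -0.33 without wild type replicate 3.

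Sox18 (1449135_at) was the endothelial gene whose brightest probe set separated the groups after quantile normalization. On the deposited values its groups overlapped, while those of Tie1 and of Sox17 at 1429177_x_at did not. Sox18 read 6.89, 7.13 and 6.95 in wild type and 6.60, 6.87 and 6.79 in null arrays, with a gap between the groups far smaller than the spread within either. Its difference was -0.23 ± 0.13 (SE; ratio 0.850, interval 0.674 to 1.07), with an adjusted p of 0.980 in limma and an exact permutation p of 0.1. Sox17 at 1429177_x_at read 6.80, 6.58 and 6.77 against 6.62, 6.40 and 6.42, a difference of -0.23 ± 0.13 (SE; ratio 0.850, interval 0.683 to 1.06). The suffix of that Sox17 probe set is the maker's mark for probes that may match other transcripts. At 1421657_a_at Sox17 stood at 0.11 ± 0.18 (SE), the opposite sign, and at -0.08 on the deposited values. The gap between the 2 Sox17 probe sets was 1.00, 0.90 and 1.38 in wild type and 0.64, 0.85 and 0.75 in null arrays, with no overlap (p = 0.1 in the exact permutation test). The 2 probe sets of Sox17 thus do not give a single direction.

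Ramp2 (1418187_at) read 8.81, 9.24 and 9.08 in wild type and 8.75, 8.85 and 8.85 in null arrays. The null arrays lay close together, and wild type replicate 1 fell among them. The Ramp2 difference was -0.23 ± 0.15 (SE; ratio 0.855, interval 0.662 to 1.10).

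**Figure D2:**
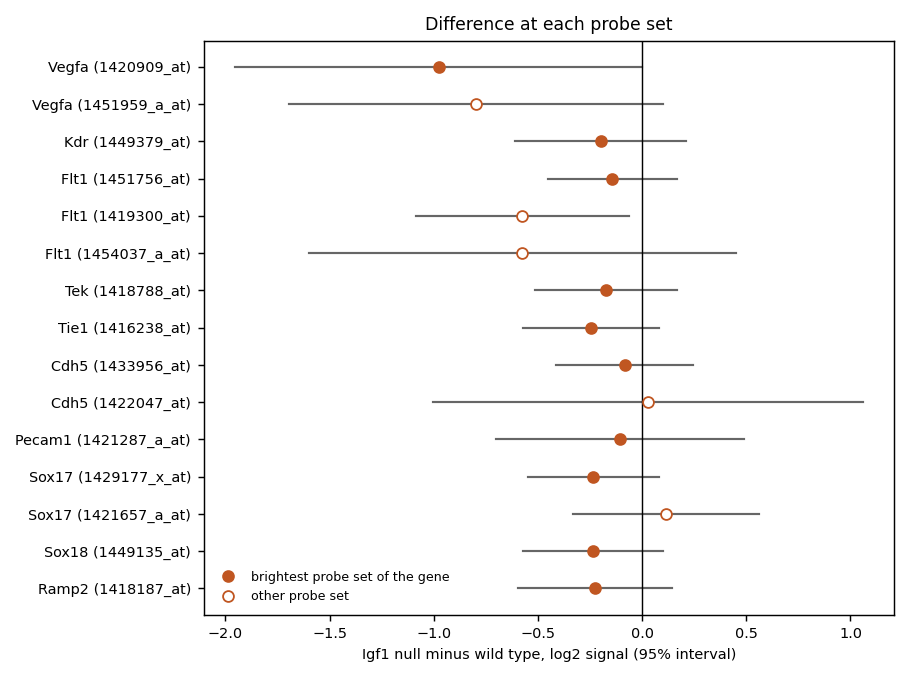
Difference in log2 signal, Igf1 null minus wild type, at each of the 15 probe sets with its 95% interval from limma; filled points are the brightest probe set of a gene and open points its others. The brightest points all lie left of 0, from -0.98 (Vegfa) to -0.08 (Cdh5), and the intervals of the 9 endothelial genes at those probe sets all include 0.

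At the brightest probe sets 10 of 10 genes averaged lower in the null group, where 48.7% of all genes did. Their median difference was -0.21, against 0.0062 over all genes, and for the 9 endothelial genes alone it was -0.20. On the deposited values, where the median of all genes shifted to -0.14, the median of the 10 was -0.34. The groups did not overlap for 2 of the 10 genes (Vegfa and Sox18), where every null array was lower for 4.98% of genes. On the deposited values it was 3 of 10 (Vegfa, Tie1 and Sox17), where the share was 4.62%. Over probe sets it was 3 of 15 (with Flt1 at 1419300_at), where the share was 5.30%, and 13 of 15 averaged lower, where 49.3% of probe sets did. The 10 genes were chosen with earlier results of these arrays known, so these counts describe them and are not independent evidence of a direction. For the 9 endothelial genes the ratio to wild type ran from 0.843 to 0.944. Every one of the 9 intervals included 1, and the lowest bound among them was 0.616 (Pecam1). In bulk tissue, fewer endothelial cells and less RNA per cell cannot be told apart.

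The endothelial genes tended to share the arrays in which they read high or low. Since all 9 averaged lower in the null group, part of this restates the group difference. Wild type replicate 2 gave the highest reading of the 6 arrays for 7 of the 9 genes, and null replicate 1 gave the lowest for 6 of 9. The median deviation from a gene's own mean was 0.01, 0.22 and 0.08 in the wild type arrays and -0.20, -0.07 and -0.08 in the null arrays. Both ends of this order were also found for 24 further endothelial genes (0.15 and -0.08) and for genes of sprouting tip cells (0.26 and -0.45). No other list had both, but each end alone was found elsewhere. By the same measure wild type replicate 2 was highest for tissues outside the dissection (0.29) but lowest for cochlear epithelial genes (-0.29). Null replicate 1 was lowest for cartilage genes (-0.51) but highest for the adrenomedullin system (0.40). The summed signal of the 9 genes ran from 10.50 to 10.72 in wild type and from 10.31 to 10.47 in null arrays on the log2 scale. Null replicate 1 also had the lowest deposited median (5.61). Without null replicate 1 all 10 genes still averaged lower, with a median of -0.16. Without wild type replicate 2 the count was 9 of 10, Pecam1 excepted, and the median was -0.16. Vegfa did not follow the same order of arrays, since relative to the median of the 9 genes it stood at 0.50, -0.16 and 0.40 in wild type and 0.04, -0.19 and -1.36 in null arrays.

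**Figure D3:**
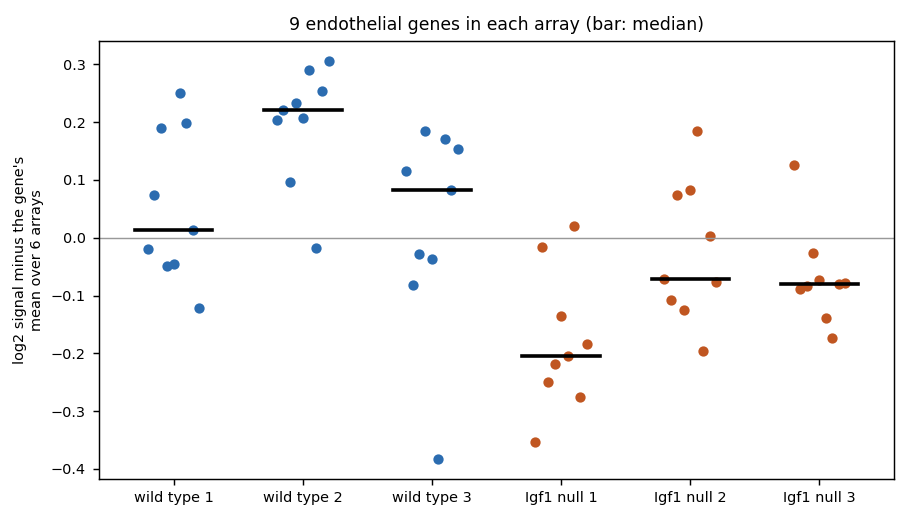
Each point is 1 of the 9 endothelial genes at its brightest probe set, as log2 signal minus that gene's mean over the 6 arrays; bars are array medians. Medians are 0.01, 0.22 and 0.08 in wild type and -0.20, -0.07 and -0.08 in null replicates 1 to 3, with points of the groups overlapping.

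Arrays of the same replicate number were also set against each other. In the first pair 10 of 10 genes were lower in the null array, with a median of -0.23, in the second 10 of 10 with -0.26, and in the third 8 of 10 with -0.11. In each pair the median of all genes was within 0.03 of 0, and 50.7%, 50.1% and 46.7% of all genes were lower. Vegfa differed by -0.73, -0.28 and -1.91 in the 3 pairs, and Sox18 by -0.29, -0.25 and -0.16. Of the 10 genes, 8 were lower in the null array of all 3 pairs, as were 1729 of all 12393. The exceptions were Kdr (0.01) and Pecam1 (0.24), both in the third pair.

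Other ligands and receptors of these pathways gave no call, with 0 of 11 past the threshold. Their median was -0.22, with 9 of the 11 averaging lower, where 48.7% of all genes did. Of these, Angpt1 (mean level 0.15) and Angpt4 (3.15) read below the signal of Prss2. Over the alternatives the median ran from -0.38 on the deposited values to -0.13 with an offset of 32. The co-receptor gene Nrp2, which binds VEGF family members, read 8.19, 8.25 and 8.35 in wild type and 8.12, 8.01 and 7.91 in null arrays, without overlap, and differed by -0.25 ± 0.11 (SE). Its relative Nrp1 stood at -0.17 ± 0.20 (SE). Among ligands, Vegfb stood at 0.01, Vegfc at -0.22, and Angpt2, the angiopoietin that antagonises Tek in many settings, at -0.88 ± 0.55 (SE) with overlapping groups. Flt4, the receptor for VEGF-C, stood at -0.27 ± 0.24 (SE). In the adrenomedullin system 1 of 4 genes averaged lower (3 of 4 on the deposited values), and Calcrl, the receptor that Ramp2 completes, stood at 0.11 ± 0.16 (SE). The lower gene, Adm, had a mean level of 3.35, below the signal of Prss2.

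A wider set of endothelial genes had a median nearer to 0. Of 24 measured genes 17 averaged lower, where 48.7% of all genes did. The median was -0.05, and 0 passed the threshold in limma. At an unadjusted p under 0.05 there were 2, both lower, where 2.37% of genes were. They were Adgrl4, an adhesion receptor of endothelial cells (5.83, 5.72 and 5.70 against 5.07, 5.48 and 5.12; -0.53 ± 0.14 SE), and S1pr1, the sphingosine 1-phosphate receptor of vessels (overlapping groups, at a mean level of 3.73, which Prss2 exceeded). Every null array was lower for 2 of the 24, Adgrl4 and Robo4 (-0.16 ± 0.10 SE), and higher for 1, Myct1 (0.19 ± 0.11 SE). Of all 12393 genes, 617 were lower and 696 higher in this way. The sialomucin gene Emcn, of capillary and venous endothelium, stood at 0.08 ± 0.16 (SE), Cldn5, of tight junctions, at -0.02 and Eng, a co-receptor of the BMP family, at 0.09. The summed signal of the 24 genes ran from 11.73 to 11.93 in wild type and from 11.70 to 11.83 in null arrays. The count of lower genes was 12 without wild type replicate 2 and with array weights, and 22 on the deposited values. Arterial, venous and Notch genes averaged lower in 5 of 13 cases (median 0.09). The count was 8 of 13 on the deposited values and without null replicate 3, with medians of -0.038 and -0.011, and 2 of 13 without wild type replicate 2. Lower ones included the arterial connexin gene Gja4 (-0.19 ± 0.14 SE), while the apelin receptor gene Aplnr stood at 0.19 ± 0.14 (SE). Of 7 genes of sprouting tip cells 5 averaged lower, with a median of -0.18. The apelin gene Apln read 6.75, 6.63 and 6.53 in wild type and 5.96, 6.21 and 6.39 in null arrays, without overlap (-0.45 ± 0.15 SE, adjusted p = 0.972 in limma).

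Vegfa is a known target of the response to low oxygen. Apart from Vegfa, 19 of 19 measured genes on a list for that response averaged lower, where 48.7% of all genes did. The list holds regulators such as Epas1, Arnt and Vhl beside target genes, so the count does not measure the activity of the response. Their median difference was -0.26, and in 8 of 19 every null array was lower, where 4.98% of genes were. None of the 19 passed the threshold, and 5 were lower at an unadjusted p under 0.05 (2.37% of genes). Of the 19, Epas1 (mean level 3.52), Adm (3.35) and Arnt (4.37) read below the signal of Prss2. Epas1, with overlapping groups, is among the 5. Ddit4, a stress-induced inhibitor of mTOR signalling, read 9.32, 9.31 and 9.19 in wild type and 8.78, 8.62 and 8.29 in null arrays (-0.71 ± 0.15 SE, adjusted p = 0.865 in limma). P4ha1, a collagen prolyl hydroxylase gene, stood at -0.31 ± 0.11 (SE), and Vhl, which targets hypoxia-inducible factors for breakdown, at -0.36 ± 0.13 (SE). The glycolytic enzyme genes Ldha and Aldoa stood at -0.10 and -0.15 with overlapping groups. With single arrays left out the count stayed at 18 or 19 of 19.

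Marker lists of other cells also had more lower than higher members in several cases, and their part in the Vegfa and endothelial values was not tested. Over all genes 48.7% averaged lower. Cartilage genes averaged lower in 11 of 11 cases (median -0.35, summed signal 14.78 to 15.07 in wild type and 14.41 to 14.86 in null arrays). Bone genes did so in 7 of 7 (median -0.23; 14.62 to 14.86 and 14.46 to 14.63). Pericyte and smooth muscle genes did in 11 of 12 (median -0.10; 11.96 to 12.30 and 11.92 to 12.03), with Pdgfrb, the receptor of pericytes, at -0.0037. The pericyte list gene that averaged higher, Cnn1 (mean level 2.67), read below the signal of Prss2. Without wild type replicate 3 the pericyte count was 6 of 12 and the median -0.0093. Of 7 leukocyte genes 4 were lower (median -0.21; 10.17 to 10.30 and 9.82 to 10.26), and of 7 erythroid genes 4 (median -0.28; 8.11 to 8.57 and 7.34 to 7.92). Among the leukocyte genes that averaged higher, Itgam (mean level 2.09) and Cd14 (4.20) read below the signal of Prss2. The 3 erythroid genes that averaged higher, Hba-a1, Hbb-bh1 and Epb42, had levels of 1.03, -0.37 and 1.06, within the outside tissue range. Slc4a1, the anion exchanger of red cells (-1.76 ± 0.18 SE, adjusted p = 0.378 in limma), and Alas2, the heme synthesis enzyme of red cell precursors (-0.79 ± 0.23 SE), were lower in every null array, though the null mean of Slc4a1 (3.43) lay below the signal of Prss2. Of 4 lymphatic genes 2 were lower, among them Lyve1, also found on macrophages (-0.49 ± 0.20 SE). Cochlear epithelial genes were lower in 3 of 12 cases, with a median of 0.15 (11.81 to 11.96 and 11.88 to 12.03), and in 6 of 12 with a median of 0.0011 on the deposited values. For RNA quality, the 3' minus 5' control signal of beta-actin was read. After quantile normalization its groups overlapped, with means of 0.73 for wild type and 0.94 for null (p = 0.2 in the exact permutation test). As deposited it was 0.76 ± 0.04 (SD, n = 3) for wild type and 0.94 ± 0.12 (SD, n = 3) for null. There every null array was above the wild type ones (p = 0.1 in the exact permutation test). The groups overlapped for the same measure of Gapdh (0.25 and 0.35, p = 0.5), pyruvate carboxylase (3.33 and 3.34, p = 1) and the transferrin receptor (3.35 and 2.17, p = 0.2) in exact permutation tests.

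**Figure D4:**
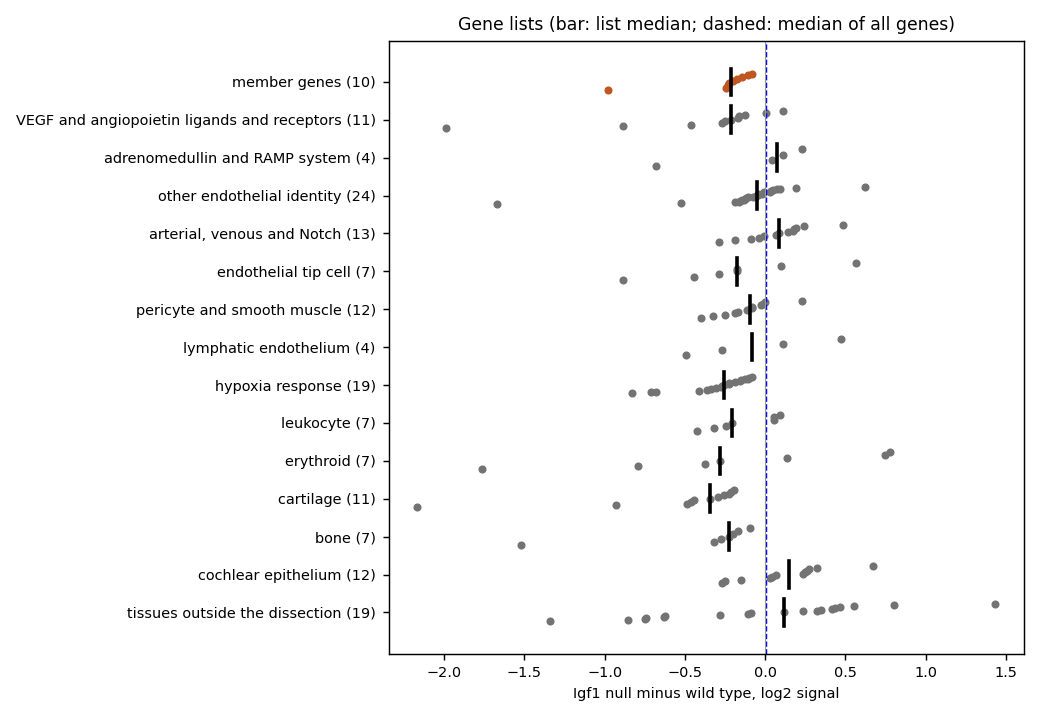
Difference in log2 signal (Igf1 null minus wild type) of each measured gene in the 10 genes (orange) and in 14 other lists (grey), with list medians as bars and the median of all genes as a dashed line. The median of the 10 genes is -0.21, and that of other VEGF and angiopoietin genes lies next to it (-0.22). The medians of bone (-0.23), hypoxia (-0.26), erythroid (-0.28) and cartilage (-0.35) genes lie further from 0, and that of 24 other endothelial genes lies at -0.05.

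By pattern over the 6 arrays, the genes most like Vegfa at its brightest probe set, out of 6195 genes above the median level, were Carmil1, Dolk, Serpinb6a, Fbxo36 and Atp11a. Their Pearson correlations with Vegfa ran from 0.994 to 0.975, and 13 genes exceeded 0.95. All 5 shared the low reading of null replicate 3, with smaller differences than Vegfa, from -0.36 (Atp11a) to -0.11 (Carmil1). Among the endothelial genes the correlation with Vegfa was highest for Sox17 (0.782) and lowest for Kdr (-0.037). These values rest on 6 arrays in which genotype is shared and are a description of likeness in these arrays.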

How the data were processed

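RNA was labelled as biotinylated cRNA for Affymetrix arrays, per the labels' protocols. The deposited table holds 1 log2 signal per probe set and array; the log base was read from the range of the values, and how signals were summarised, background corrected and scaled was not given in the sources used here. Array medians differed, so the 6 arrays were quantile normalized without the 64 control probe sets, and no filter was applied. Genes were named from the platform annotation, with symbols looked up in RefSeq's GRCm38.p6 table. Of the probe sets, 20380 named 1 gene, 691 several and 1555 none. For lists, a gene's value was that of its brightest probe set on average.

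The 2 genotypes were fitted in limma (version 3.58.1, under R 4.3.3; genotype only, two-sided, Benjamini-Hochberg over all probe sets or genes, threshold 0.05), with exact permutation tests over the 20 splits for single values. Control probe sets were read on the deposited scale, and beta-actin also after a quantile normalization that included them. Alternatives were the deposited values, median centring, replicate or title number as a block, a trended robust prior, array weights, a filter at the 40th percentile, an offset of 32, the mean over probe sets, and leaving out arrays. Counts of lower genes under each alternative were added after the data were seen. Over probe sets above the median level, deviations from the group means of arrays with the same replicate number correlated at 0.19, 0.38 and 0.14, and over all probe sets at 0.04, 0.10 and 0.02, so pairing is given beside the unpaired values and what the numbers mark is not given. On simulated data of 22626 probe sets, 44.8% of 2-fold and 90.2% of 4-fold changes above the median level were called. The simulated noise was independent between arrays, and smaller changes were not simulated. These shares are thus not the rate at which differences of the size of most members would be called.

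The members, lists and tests were chosen with earlier results of these data known. Named genes are all members, Igf1, up to 3 genes per list by smallest p and 2 by level, and the 5 genes most like Vegfa. Vegfb, Vegfc, Flt4, Angpt1, Cldn5, Eng, Robo4, Myct1, Epas1, Arnt, Cnn1, Itgam, Cd14, Hba-a1, Hbb-bh1 and Epb42 were named after their values were seen.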

Additional observations from a re-analysis of the deposited data

How the results depend on the processing

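Of 222 values of the 15 probe set differences under the alternatives, 212 kept their direction, 10 turned and 0 passed the threshold in limma. The differences of Vegfa, Kdr, Tek, Tie1, Sox18, Ramp2 and Flt1 and those of the brightest Cdh5 and Sox17 probe sets kept their sign in every alternative run. Those that turned were Pecam1 (0.13 with array weights, 0.067 without the arrays that carry 14 in their titles, and from -0.33 to 0.0131 with single arrays left out), Sox17 at 1421657_a_at (-0.075 on the deposited values, and from -0.0061 to 0.20 with single arrays left out) and Cdh5 at 1422047_at (-0.30 on the deposited values, -0.12 with median centring, and from -0.35 to 0.30 with single arrays left out). The median of the 10 genes was -0.34 on the deposited values and ran from -0.23 to -0.16 with single arrays left out. With the replicate number as a block (replicate block) 0 probe sets and 0 genes passed, Vegfa stood at -0.98 (unadjusted p = 0.0842, adjusted p = 0.847) and no adjusted call changed. With single arrays left out 0 to 1 genes passed, the 1 without null replicate 3 being none of the 10. With 3 arrays a group, 44.8% of 2-fold changes above the median level were called in the simulations, which held no smaller changes. Most members differed by less, so that share does not apply to them. The dimmest Cdh5, Flt1 and Vegfa probe sets carry signals near those of tissues not dissected.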
